A study of Homo sapiens with 6 samples.

Results

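The mitochondrial ribosome is the particle that makes the proteins encoded in mitochondrial DNA, all of which are core subunits of the respiratory chain and ATP synthase. Its large subunit joins amino acids at the peptidyl transferase centre and threads the new chain through an exit tunnel to the inner membrane, while its small subunit binds the messenger and checks each codon. Its RNA is transcribed inside the organelle, whereas its proteins are encoded in the nucleus, made in the cytosol and imported, so that the particle needs the output of both genomes. Acute myeloid leukaemia cells are known for a strong dependence on mitochondrial protein synthesis.

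The genes described here are the protein-coding genes whose symbol begins with MRPL or MRPS followed by a number. There were 78 of them among the 61806 genes of the count table, 49 with a large subunit symbol (MRPL) and 29 with a small subunit symbol (MRPS). Each gene had between 457 and 27580 counts in every library, and all 78 were among the 19149 genes kept for testing. The symbol is not always the place of the protein, since MRPS18A and MRPS30 belong to the large subunit in known structures, and MRPS36 is a subunit of the 2-oxoglutarate dehydrogenase complex rather than a ribosomal protein.

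RNA was sequenced from MV4-11, a human acute myeloid leukaemia cell line that carries an internal tandem duplication in FLT3, in 6 libraries. Of these, 3 were labelled shNC, a negative control shRNA, and 3 were labelled shATGL, an shRNA against ATGL (gene symbol PNPLA2), the lipase that starts the breakdown of stored triglycerides; the study delivered its vectors by lentivirus and selected stable cells with puromycin. The labels give no other treatment or time, do not name the shRNA used and do not say whether replicates were separate cultures, so that p-values measure the spread between these libraries. In bulk RNA, fewer cells with a transcript and less transcript per cell cannot be told apart.

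Total counts ranged from 59674064 to 74808280 per library, and transcripts encoded in mitochondrial DNA took between 6.34% and 8.17% of them. PNPLA2 had 101, 97.0 and 107 CPM (the usual per-library scaling of read counts by size, here adjusted for composition) in the shNC libraries and 102, 98.1 and 104 CPM in the shATGL libraries, a log2 difference of -0.01 ± 0.06 (SE; edgeR quasi-likelihood test, Benjamini-Hochberg adjusted p = 0.979). The values overlapped between the groups and the targeted transcript did not bear out the label, so that shATGL and shNC below mean the libraries with those labels. All 9 myeloid markers passed the low count filter. Of 9 markers of other cell types 1 passed it and 5 had no count, with a highest level of 1.35 CPM. The library labelled shATGL 3 stood apart from the other 2 of its group in the genes described here, and the comparison of the groups is given with and without it, for the counts and for several single genes.

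The promoters of these genes shared short sequences that the choice by symbol did not use. RefSeq windows of 250 bases before to 50 bases after the start (GRCh38.p14) were matched for 69 of the 78 genes and searched on both strands for 3 motifs. The ETS motif CCGGAAG, bound by GABPA (also called NRF2), a known activator of nuclear genes for mitochondrial proteins, was in 29 windows (42.0%), against 18.4% of the 11061 windows of tested protein-coding genes. The YY1 motif AAGATGG was in 23 windows (33.3%), against 7.27%, and the NRF1 core GCATGCG in 7 (10.1%), against 6.20%. At least 1 of the 3 was in 45 windows (65.2%), against 28.3%. The NRF1 core and its reverse complement share 6 of their letters, so that the letters CGCATGCG match on both strands.

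The 250 bases before the start of 5 genes are printed 5′ to 3′ on the gene's strand, with motif matches in capitals. MRPL22 was chosen for its NRF1 match, MRPL20 and MRPL58 for repeated ETS matches, and MRPL52 for YY1 matches beside an NRF1 core. MRPS25, the gene with the highest fold change, was chosen among the many that held none of the 3 in these bases. Matches wholly before the start were in 33.3% (ETS), 10.1% (YY1) and 10.1% (NRF1) of the 69 windows. Among the tested protein-coding genes these shares were 15.3%, 3.36% and 5.47%. No link between motifs and fold change was tested.
MRPL22 (chr5:154940823-154941072, plus strand): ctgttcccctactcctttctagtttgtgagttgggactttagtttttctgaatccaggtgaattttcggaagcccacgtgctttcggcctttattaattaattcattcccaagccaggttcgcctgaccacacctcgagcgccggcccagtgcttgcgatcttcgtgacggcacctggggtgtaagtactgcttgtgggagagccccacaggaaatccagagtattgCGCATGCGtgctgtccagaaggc
MRPL20 (chr1:1407294-1407543, minus strand): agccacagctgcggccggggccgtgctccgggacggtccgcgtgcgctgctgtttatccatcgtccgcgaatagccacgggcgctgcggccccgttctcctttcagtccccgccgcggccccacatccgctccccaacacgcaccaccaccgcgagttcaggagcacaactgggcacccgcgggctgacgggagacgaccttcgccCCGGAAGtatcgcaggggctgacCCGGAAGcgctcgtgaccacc
MRPL58 (chr17:75012420-75012669, plus strand): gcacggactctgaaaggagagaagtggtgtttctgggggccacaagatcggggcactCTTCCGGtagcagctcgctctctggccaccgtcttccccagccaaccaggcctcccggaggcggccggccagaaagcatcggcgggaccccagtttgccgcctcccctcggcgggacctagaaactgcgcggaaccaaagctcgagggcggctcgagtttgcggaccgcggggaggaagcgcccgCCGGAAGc
MRPL52 (chr14:22829637-22829886, plus strand): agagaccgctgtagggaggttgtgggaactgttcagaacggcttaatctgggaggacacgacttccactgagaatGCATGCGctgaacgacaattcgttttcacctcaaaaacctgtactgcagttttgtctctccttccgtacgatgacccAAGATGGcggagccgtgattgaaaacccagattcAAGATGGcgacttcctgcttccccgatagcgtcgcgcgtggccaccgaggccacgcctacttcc
MRPS25 (chr3:15065316-15065565, minus strand): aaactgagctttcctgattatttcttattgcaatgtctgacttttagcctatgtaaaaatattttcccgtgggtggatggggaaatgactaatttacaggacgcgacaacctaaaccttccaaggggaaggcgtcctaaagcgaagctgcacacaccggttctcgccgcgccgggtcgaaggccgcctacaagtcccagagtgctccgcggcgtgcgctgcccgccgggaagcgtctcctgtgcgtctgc
In MRPL20 both ETS matches lie close to the start, and in MRPL58 the matches lie on opposite strands. A match is a match of letters and not a bound site.

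The ETS and YY1 motifs had similar shares in both subunits. The ETS motif was in 40.5% of the large and 44.4% of the small subunit windows, and the YY1 motif in 33.3% of each. YY1 matches that reached past the start were in 16 of the 69 windows (23.2%), against 4.18% of the tested protein-coding genes. The windows of these genes held a median of 60.3% G and C, against 65% in those genes.

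The genes were also often placed head to head with another gene. A protein-coding start on the opposite strand lay within 1000 bases of the start of 29 of the 78 (37.2%), against 16.7% of the 13792 tested protein-coding genes with a position. Such pairs included MRPL46 with MRPS11, starts 34 bases apart, MRPL18 with TCP1, a cytosolic chaperonin subunit, 63 bases apart, and MRPL47 with NDUFB5, a complex I subunit, 36 bases apart. The genes lay on 21 chromosomes, with at most 8 on any of them (chromosomes 1, 2 and 17).

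Levels are given as CPM per kb of merged exon sequence, so that genes of different length can be compared. They spanned 44.6-fold, and a few genes stood well above the rest. MRPL12, the stalk protein that contacts translation factors and also binds the mitochondrial RNA polymerase, was highest of the large subunit at 135 ± 16.4 CPM per kb (SD over 6 libraries). MRPL37, a protein without a bacterial counterpart, followed at 131 ± 16.5, a difference smaller than the spread of either gene. MRPL18, of the central protuberance, had 104 ± 10.7 CPM per kb, and MRPL15 had 60.7 ± 6.12.

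Among the small subunit symbols MRPS34, a protein particular to mitochondria that is needed for a stable small subunit, stood alone at 123 ± 16.4 CPM per kb. MRPS18A, of the large subunit in known structures, followed at 53.7 ± 7.22. MRPS10, of the head, was next at 43.6 ± 2.07, then MRPS2, of the body, at 40.3 ± 3.64. MRPS10 and MRPS2 differed by less than the larger of their spreads. The 4 highest genes held 31.1% of the summed level of the large subunit symbols. Among the small subunit symbols, MRPS18A included, they held 40.8%.

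The lowest levels were those of MRPS33, a small protein of the head, at 3.03 ± 0.426 CPM per kb, MRPL46 at 3.53 ± 0.370 and MRPL42 at 3.98 ± 0.392. MRPS17 was next lowest in the small subunit at 6.30 ± 0.826. Some of this order depended on the length used. MRPL42 has merged exons of 16393 bases and a longest transcript of 15582 bases, so both lengths put it low. Its CPM, not divided by length, ran from 53.7 to 72.6 over the libraries. The median of the mean CPM over the 78 genes was 47.6. Per kb of the longest transcript MRPL46 had 22.3 CPM, MRPL37 had 211 and MRPS30 had 69.9 in place of 18.9, and 5 of the 8 genes that led their subunit on merged exons stayed among the 4 highest.

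**Figure D1:**
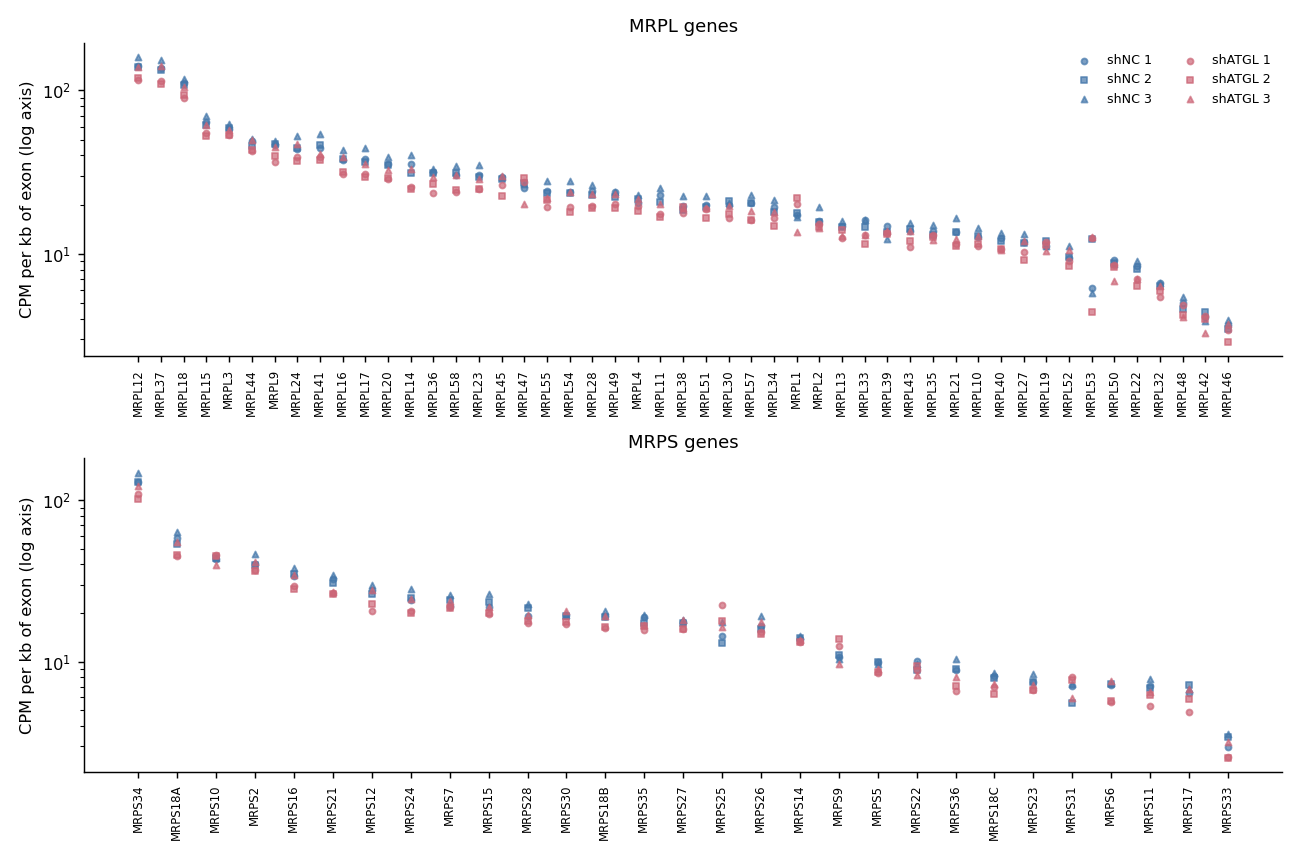
Level of each gene in each of the 6 libraries, as CPM per kb of merged exons on a log axis, with genes ordered by their mean within the large (top) and small (bottom) subunit symbols; blue marks are shNC and red marks are shATGL libraries. MRPL12, MRPL37, MRPL18 and MRPS34 lie above 100 CPM per kb on average, and the blue triangle (shNC 3) is usually the top mark.

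The plot of levels shows that a gene's libraries mostly lay close together compared with the distance between the highest and lowest genes. The coefficient of variation over the 6 libraries had a median of 11.2%, from 3.44% in MRPS14 to 43.5% in MRPL53. Over the 8404 genes in the same range of CPM the median was 8.42%, and 62 of the 78 genes exceeded it. The highest library exceeded the lowest by a median of 1.35-fold, from 1.10-fold to 2.87-fold.

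Together these genes took 0.464%, 0.461% and 0.494% of all counts in the shNC libraries, against 0.425%, 0.419% and 0.458% in the shATGL libraries. The first 2 shATGL libraries lay below all of shNC, and shATGL 3 lay just under the lowest shNC library. Deviations were taken from each gene's own mean on the log2 CPM scale. Their median was 0.07, 0.04 and 0.21 in shNC 1 to 3 and -0.14, -0.15 and 0.00 in shATGL 1 to 3. The library shNC 3 held the highest value of 59 genes. The lowest value was in shATGL 2 for 35 genes, in shATGL 1 for 28 and in shATGL 3 for 12.

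**Figure D2:**
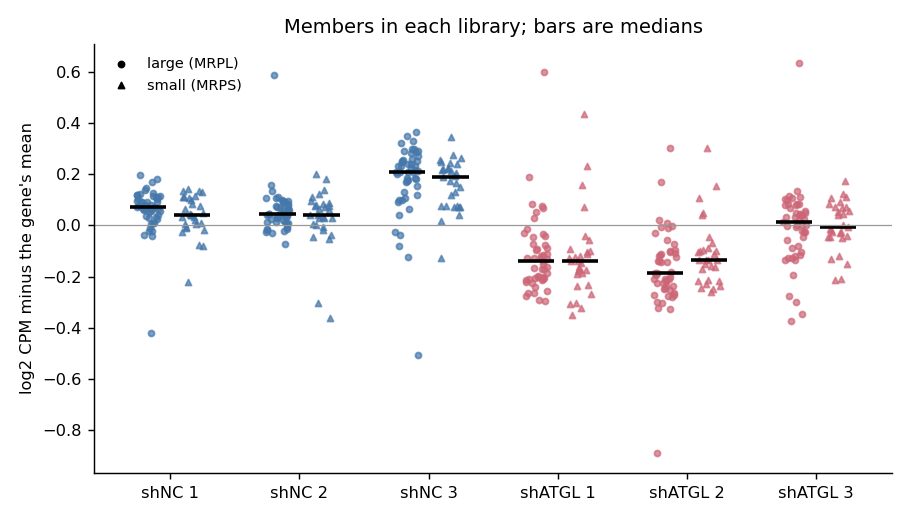
Deviation of each gene from its own mean over the 6 libraries (vertical axis, log2 CPM), by library and subunit; circles are large and triangles small subunit genes, and black bars are medians. Both subunits shift together in every library, highest in shNC 3 and lowest in shATGL 1 and 2, with shATGL 3 near 0.

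The 12 genes that were lowest in shATGL 3, named after their values were seen, are MRPL1, MRPL2, MRPL19, MRPL35, MRPL40, MRPL42, MRPL47, MRPL48, MRPL50, MRPS9, MRPS10 and MRPS22. Of these, MRPL1 and MRPS9 are shown in full because their fitted fold change was above 0. MRPL1, the protein of the mobile stalk where spent transfer RNA leaves, had 33.4, 34.6 and 32.5 CPM in shNC and 39.2, 42.5 and 26.5 CPM in shATGL. MRPS9, of the small subunit head, had 20.3, 21.0 and 19.7 CPM in shNC and 24.1, 26.5 and 18.6 CPM in shATGL. In both genes shATGL 1 and 2 were above and shATGL 3 below every shNC library.

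The subunits moved in step. The summed large subunit level was 1446, 1427 and 1593 CPM per kb in shNC, against 1236, 1224 and 1398 CPM per kb in shATGL. The summed small subunit level was 658, 652 and 726 CPM per kb in shNC, against 585, 579 and 639 CPM per kb in shATGL. The shATGL means were 86.4% and 88.6% of the shNC means. In both subunits every shATGL library was below every shNC library. The ratio of large to small subunit level was 2.20, 2.19 and 2.19 in shNC, against 2.11, 2.11 and 2.19 in shATGL.

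That ratio was almost constant among the controls, at 2.194 ± 0.00477 (SD, n = 3), and it was 2.138 ± 0.0441 in shATGL, with shATGL 3 just under the lowest control. With subunits assigned by structure it was 2.67, 2.63 and 2.65 in shNC, against 2.52, 2.53 and 2.65 in shATGL, and shATGL 3 lay within the range of the controls. MRPS25 alone made up between 1.99% and 2.41% of the small subunit level in shNC and 3.86%, 3.10% and 2.56% in shATGL. Without MRPS25 the ratio was 2.25, 2.23 and 2.25 in shNC, against 2.20, 2.18 and 2.25 in shATGL, and the groups overlapped.

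The comparison of shATGL with shNC asks how the genes differ where ATGL is targeted. None of the 78 genes passed the threshold of an adjusted p under 0.05 with a fold of at least 2, where 1 of the 19149 tested genes (0.00522%) did (edgeR quasi-likelihood test, Benjamini-Hochberg adjustment). None passed at any fold either (background 0.00522%), and the smallest adjusted p was 0.392. At an unadjusted p under 0.05, 35 genes were lower in shATGL (background 5.94%) and 1, MRPS25, was higher (background 5.77%). For 77 of the 78 genes the 95% interval of the fold change lay within 2-fold in both directions. The exception was MRPL53, with a log2 interval from -0.73 to 1.3.

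The differences were small and mostly of 1 sign. The fitted log2 fold change was below 0 for 73 of the 78 genes (background 48.1%), with a median of -0.20 against 0.01 over all tested genes and -0.02 over genes in the same range of CPM. It ran from -0.39 in MRPS36 to 0.34 in MRPS25, which puts the shATGL means between 76.5% and 127% of the shNC means. In 37 genes (47.4%) every shATGL library was below every shNC library (background 9.38%), and in none was every shATGL library above (background 7.93%). With upper-quartile scaling the 37 became 22, all among the 37 (background 7.73%). For such a gene the two-sided exact permutation p is 0.1, the smallest that 3 against 3 libraries can give.

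Whether single genes passed at any fold changed with the library shATGL 3 and with the method. Without shATGL 3, 38 genes had an adjusted p under 0.05 (edgeR), 36 lower and 2 higher, against 14% of 19954 genes tested. The median log2 fold change was then -0.27. Then the groups did not overlap in 65 genes with lower values (background 24.1%) and in 6 with higher values (background 24.9%). With quality weights that let the libraries count unequally (limma voom), 34 genes passed, 33 lower and 1 higher, against 10.8% of all genes. Of these, 33 also passed without shATGL 3. Leaving out any other library gave 0 genes.

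**Figure D3:**
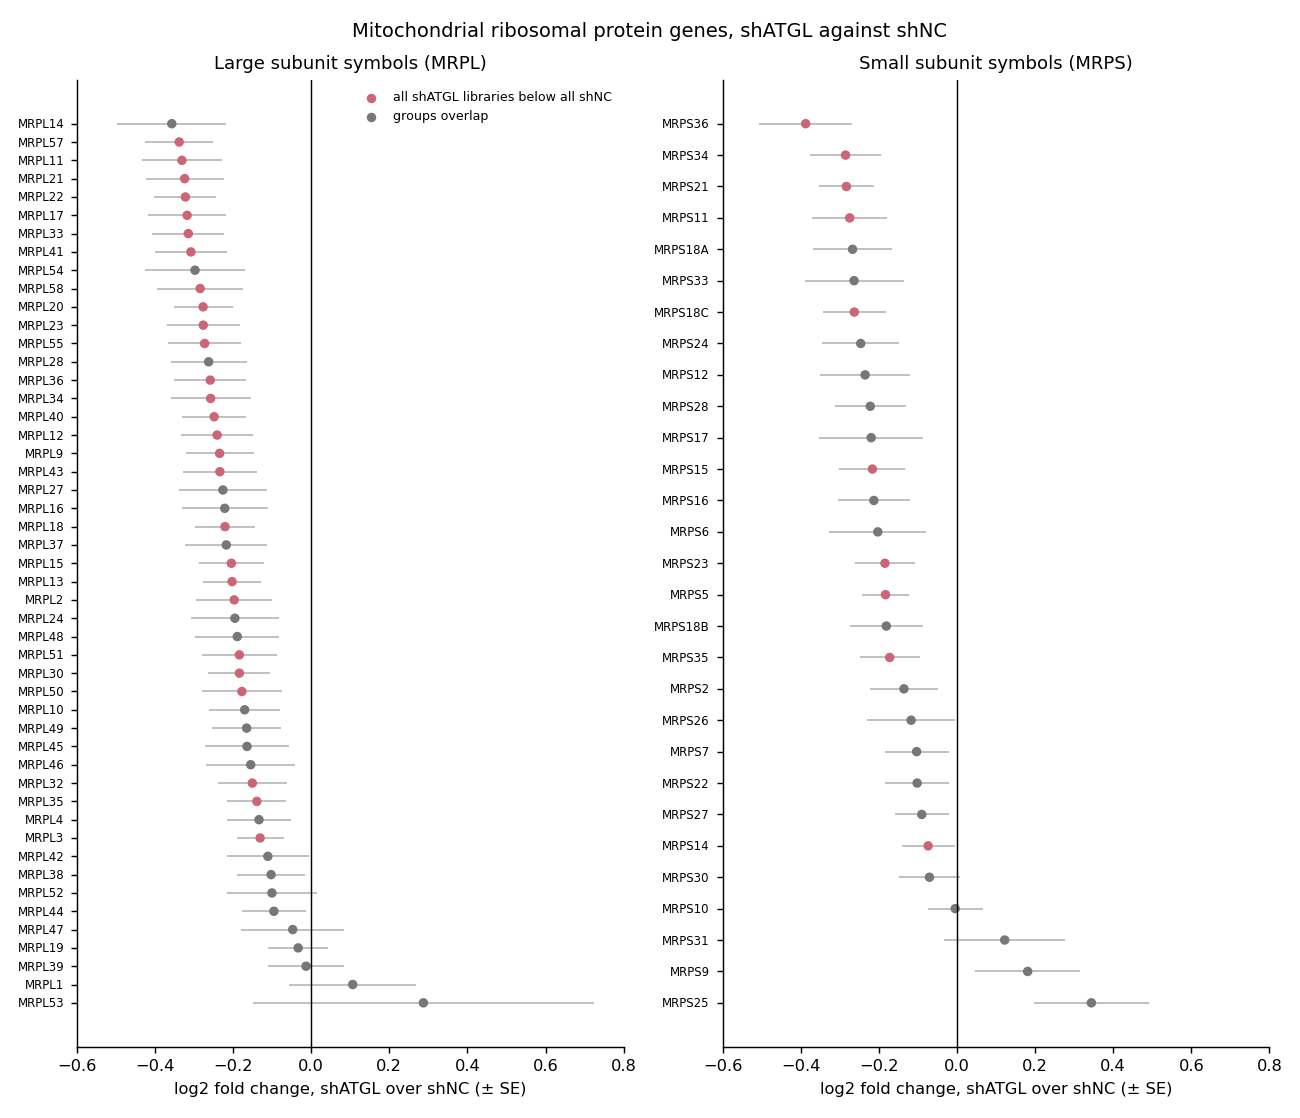
Log2 fold change of shATGL over shNC (horizontal axis, ± SE) of each large (left) and small (right) subunit gene; red points are genes whose shATGL libraries all lie below all shNC libraries, grey points are genes whose groups overlap. Of the points, 47 of 49 on the left and 26 of 29 on the right lie below 0, and none passed the adjusted threshold.

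By symbol, 47 of the 49 large subunit genes and 26 of the 29 small subunit genes were below 0, with medians of -0.20 and -0.18, as the plot of fold changes shows. The groups did not overlap in 27 of the large (55.1%) and 10 of the small subunit genes (34.5%), where the background of 9.38% applies to each count of this kind in the groups below. Grouped by known place in the structure, the counts were 27 of 51 and 9 of 26. Genes with a bacterial counterpart, 46 in all, had a median of -0.22 and did not overlap in 26 (56.5%). The 32 particular to mitochondria had a median of -0.17 and did not overlap in 11 (34.4%). No difference between these classes was tested.

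At the stalk that recruits translation factors, 4 of 5 genes were below 0, with a median of -0.24. MRPL12 had 144, 143 and 164 CPM in shNC and 118, 122 and 142 CPM in shATGL, a log2 fold change of -0.24 ± 0.09 (SE; edgeR adjusted p = 0.400). MRPL11, at the base of the stalk, had 58.3, 52.7 and 63.8 CPM in shNC and 44.6, 42.8 and 51.5 CPM in shATGL, a log2 fold change of -0.33 ± 0.10 (edgeR adjusted p = 0.392). In both genes the groups did not overlap. MRPL10, which anchors MRPL12, lay at -0.17 with overlapping groups.

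At the peptidyl transferase centre all 4 genes were below 0, with a median of -0.21. MRPL3, whose bacterial counterpart reaches towards the catalytic site, had 158, 159 and 169 CPM in shNC and 145, 144 and 155 CPM in shATGL. Its groups did not overlap, yet the log2 fold change was only -0.13 ± 0.06 (SE). MRPL27, of the same centre, was at -0.23 with overlapping groups.

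Along the exit tunnel all 9 genes were below 0, with a median of -0.16, and 3 did not overlap. MRPL22, which lines the tunnel, had 44.2, 42.3 and 47.5 CPM in shNC and 36.9, 33.5 and 36.8 CPM in shATGL. The shATGL mean was 80.0% of the shNC mean, a log2 fold change of -0.32 ± 0.08 (SE; edgeR adjusted p = 0.392). MRPL45, which docks the ribosome at the inner membrane, was at -0.16, and MRPL44, which has a ribonuclease III fold, at -0.10, both with overlapping groups. With 1 library left out MRPL45 ranged from -0.27 without shATGL 3 to -0.06 without shATGL 2, and MRPL44 from -0.18 without shATGL 3 to -0.06 without shATGL 1.

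The central protuberance, the part of the large subunit that meets the head of the small subunit, had all 8 genes below 0, with a median of -0.20 and 4 without overlap. MRPL18 had 153, 147 and 162 CPM in shNC and 123, 129 and 145 CPM in shATGL. MRPL58, a peptidyl-tRNA hydrolase also known as ICT1, had 33.7, 34.5 and 38.3 CPM in shNC and 26.5, 27.4 and 33.6 CPM in shATGL. In each the highest shATGL library was shATGL 3, just below the lowest control.

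The 22 remaining large subunit genes were all below 0, with a median of -0.23, and 16 did not overlap. MRPL57, particular to mitochondria, had 46.0, 45.9 and 51.7 CPM in shNC and 36.4, 36.1 and 41.2 CPM in shATGL, a log2 fold change of -0.34 ± 0.09 (SE). MRPL20 had 98.4, 97.9 and 108 CPM in shNC and 80.0, 81.1 and 90.4 CPM in shATGL, at -0.28 ± 0.08. MRPL33 had 24.7, 22.5 and 24.8 CPM in shNC and 20.2, 17.8 and 19.99 CPM in shATGL, at -0.31 ± 0.09. These 3, with MRPL22 and MRPS21, had the smallest unadjusted p, between 0.00404 and 0.010, and each had an adjusted p of 0.392 (edgeR). MRPL37, MRPL15 and MRPL42 were at -0.22, -0.20 and -0.11, and without shATGL 3 MRPL42 was at -0.01.

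In the small subunit the 3 genes of the decoding centre and messenger path were below 0, with a median of -0.24. MRPS12, the counterpart of the bacterial protein that carries streptomycin resistance mutations, had 59.3, 56.1 and 64.2 CPM in shNC and 44.4, 48.8 and 59.3 CPM in shATGL, and the groups overlapped. MRPS5 had 66.8, 66.3 and 65.1 CPM in shNC and 56.8, 57.7 and 60.1 CPM in shATGL, and they did not. Its log2 fold change was -0.18 ± 0.06 (SE; edgeR adjusted p = 0.392).

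In the body of the small subunit 15 of 16 genes were below 0, with a median of -0.21, and 6 did not overlap. MRPS21 had the smallest unadjusted p of all 78 genes, with 53.1, 50.2 and 56.1 CPM in shNC and 43.5, 43.1 and 44.4 CPM in shATGL. Its group means were 53.1 ± 2.97 and 43.7 ± 0.641 CPM (SD, n = 3). On the log2 scale the difference was -0.28 ± 0.07 (SE; edgeR adjusted p = 0.392). MRPS34 had 142, 142 and 163 CPM in shNC and 119, 112 and 134 CPM in shATGL, also without overlap. MRPS2, MRPS16, MRPS17 and MRPS22 were at -0.14, -0.21, -0.22 and -0.10, with overlapping groups.

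The head of the small subunit had the median nearest to 0 among these places, with values of both signs. Of its 7 genes 5 were below 0, with a median of -0.07, and 2 did not overlap. MRPS14 varied least of all 78 genes, with 35.7, 36.3 and 37.5 CPM in shNC and 34.2, 34.5 and 35.4 CPM in shATGL. MRPS10 had 91.5, 92.1 and 92.9 CPM in shNC and 96.5, 95.1 and 84.0 CPM in shATGL, a log2 fold change of 0.00 whose sign turned with the setting. MRPS7 was at -0.10 and MRPS33 at -0.26. MRPS9 and MRPS31, named for their sign, were at 0.18 ± 0.13 and 0.12 ± 0.16 (SE). Without shATGL 3, MRPS9 was at 0.31 and passed (edgeR adjusted p = 0.0441), and MRPS31 was at 0.24 and did not (edgeR adjusted p = 0.273).

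Of the genes whose symbol and place differ, MRPS18A was at -0.27 and MRPS30 at -0.07, both with overlapping groups; without shATGL 3 MRPS30 was at -0.16. MRPS36, the dehydrogenase subunit, had 13.6, 13.7 and 15.95 CPM in shNC and 10.1, 10.8 and 12.2 CPM in shATGL. Its log2 fold change of -0.39 ± 0.12 (SE; edgeR adjusted p = 0.392) was the lowest of the 78, although it is not part of the ribosome. MRPL1 was at 0.11 ± 0.16, and it reached an adjusted p of 0.0331 (edgeR) at 0.28 when shATGL 3 was left out.

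MRPL53 and MRPS25, the 2 genes with the highest fold changes and named for that, both share exon bases with a neighbouring gene. MRPL53, a mitochondria-specific protein near the stalk (chr2:74471958-74473322, minus strand, GENCODE 29 on GRCh38), had 8.27, 16.6 and 7.79 CPM in shNC and 16.7, 5.97 and 17.1 CPM in shATGL. Its values fell into a low and a high level that did not follow the groups, and its log2 fold change of 0.29 ± 0.44 (SE) was 0.06 without shATGL 3. CCDC142 (chr2:74471986-74483408), on the same strand, shares 608 bases with it, 45.2% of the exon bases of MRPL53. CCDC142 had 29.6, 21.2 and 29.8 CPM in shNC and 19.6, 28.8 and 21.1 CPM in shATGL, low wherever MRPL53 was high. The sum of both was 37.9, 37.8 and 37.6 CPM in shNC and 36.3, 34.8 and 38.2 CPM in shATGL, and its coefficient of variation was 3.55%, against 43.5% for MRPL53 alone.

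MRPS25, a mitochondria-specific protein of the small subunit (chr3:15042460-15065335, minus strand), had 77.0, 69.9 and 94.3 CPM in shNC and 121, 96.6 and 88.1 CPM in shATGL. Its log2 fold change was 0.34 ± 0.15 (SE; edgeR adjusted p = 0.425), and the groups overlapped. NR2C2 (chr3:14947584-15053600), a nuclear receptor gene on the opposite strand, shares 1197 bases with it, 22.2% of the exon bases of MRPS25. NR2C2 had 64.2, 66.3 and 44.3 CPM in shNC and 30.4, 53.7 and 58.6 CPM in shATGL. The sum of both was 141, 136 and 139 CPM in shNC and 152, 150 and 147 CPM in shATGL, with no overlap between the groups (two-sided exact permutation p = 0.1, the smallest possible). How reads in shared bases were counted is not given in the sources used here. The values of both genes, and of others with shared exon bases, are uncertain for that reason.

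**Figure D4:**
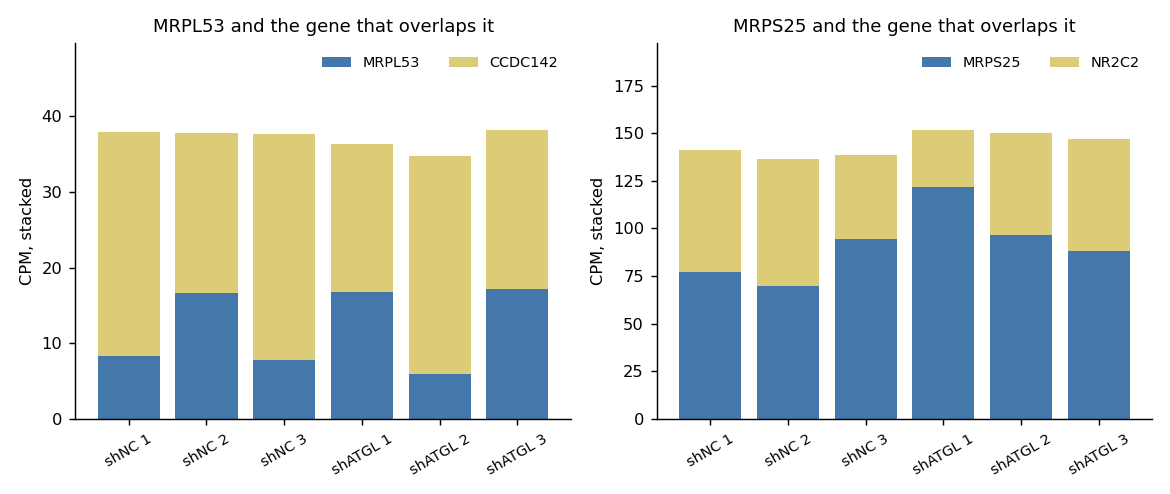
Stacked CPM (vertical axis) in each library of MRPL53 with CCDC142 (left) and of MRPS25 with NR2C2 (right); blue is the ribosomal protein gene and yellow the gene that overlaps it. The left sums stay between 34.8 and 38.2 CPM and the right sums between 136 and 152 CPM while the shares within them change.

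The stacked plot shows that the member and its neighbour traded share while their sum varied less than the member alone. The sum of MRPS25 and NR2C2 still differed between the groups, at 138.7 ± 2.47 CPM in shNC and 149.6 ± 2.66 CPM in shATGL (SD). Overlaps were frequent among the 78 genes, with exon bases shared on the same strand in 16 and on the opposite strand in 29. In other genes, Pearson's r with the CPM of an overlapping neighbour ran from -0.925 (MRPS6 with SLC5A3) to 0.932 (MRPS7 with MIF4GD). It was -0.813 for MRPS18C with ABRAXAS1 and -0.71 for MRPS5 with ZNF514. The sum of MRPS6 and SLC5A3 was 43.15, 47.42 and 42.86 CPM in shNC and 44.67, 44.67 and 44.03 CPM in shATGL. That sum overlapped between the groups. The sums of the MRPS18C and MRPS5 pairs did not, and were lower in shATGL. Of the 37 genes without any shared exon bases 35 were below 0, with a median of -0.22, and 20 (54.1%) did not overlap between groups (background 9.38%).

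Transcript length and base composition moved with the fold change. The longest transcripts of the 78 genes had a median of 1516 bases, against 2748 over all tested genes with a length. Across genes, which are not independent replicates, Spearman's rho between the log2 fold change and transcript length was 0.325 over the 78 genes and 0.224 over 18469 genes. For the percentage of G and C it was -0.341 and -0.163. Within libraries, rho between the deviation from the gene's mean and length over all genes was -0.109, -0.0251 and -0.332 in shNC 1 to 3 and 0.211, 0.235 and -0.0496 in shATGL 1 to 3. The library with the lowest rho, shNC 3, had the highest median of the 78 genes, and the library with the highest rho, shATGL 2, had the lowest.

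When trends with length and G and C content were removed from each library, rho with length over the 78 genes was 0.0458. The median log2 fold change of the 78 genes was then -0.21, against -0.05 over all genes, and 74 were below 0. Again 37 genes did not overlap, 27 of them the same as before, while the background rose to 13.9%. MRPL22 was at -0.42, MRPL42 at -0.39, MRPL57 at -0.33, MRPS21 at -0.26 and MRPS25 at 0.28, and MRPL1 turned from 0.11 to -0.01.

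The partners of these proteins in the same particle gave similar values where they are structural. Of the 5 mitoribosomal proteins under other symbols, 4 were below 0 and did not overlap (background 9.38%), with a median of -0.25 and no adjusted p under 0.05. GADD45GIP1, a large subunit protein, had 92.4, 85.3 and 108 CPM in shNC and 68.9, 72.4 and 81.3 CPM in shATGL, a log2 fold change of -0.36 ± 0.10 (SE; edgeR adjusted p = 0.392), the smallest p of the 45 companion genes. The large ribosomal RNA MT-RNR2, made in the organelle, had 5891, 6011 and 6449 CPM in shNC and 4990, 5406 and 5563 CPM in shATGL. The small ribosomal RNA MT-RNR1 had 529, 537 and 592 CPM in shNC and 442, 471 and 524 CPM in shATGL. Both RNAs were lower in every shATGL library, with a median log2 fold change of -0.20.

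The factors that work on the ribosome without being part of it lay nearer to 0. Of 15 translation factors 10 were below 0, with a median of -0.04 and no gene without overlap. Of these, MTRF1, a release factor, had the smallest p in the other direction, with 9.18, 8.05 and 8.90 CPM in shNC and 11.7, 12.3 and 9.04 CPM in shATGL, a log2 fold change of 0.34 ± 0.14 (SE; edgeR adjusted p = 0.418). Of 25 genes for ribosomal RNA modification and assembly 16 were below 0, with a median of -0.07, and 6 did not overlap. Over all 45 companions 30 were below 0, with a median of -0.06, 10 (22.2%) lay lower without overlap (background 9.38%), and none passed the adjusted threshold. The longest transcripts had medians of 2734 bases (translation factors) and 2419 bases (modification and assembly), against 1516 bases for the 78 genes. With length and G and C trends removed, the median log2 fold changes were -0.12 and -0.09, and -0.12 over all 45. That of the 78 genes was then -0.21, and that over all tested genes went from 0.01 to -0.05. The difference between these lists and the 78 genes was not tested.

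The motifs were also counted by whether the groups overlapped, as a description. The ETS motif was in 40.0% of the 30 matched promoters of genes without overlap and in 43.6% of the 39 others. The YY1 motif was in 23.3% and 41.0%, and the NRF1 core in 16.7% and 5.13%. Of the 26 tested head-to-head partners that are not themselves among the 78 genes, 12 were below 0, with a median log2 fold change of 0.02.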

How the data were processed

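Total RNA of 3 shNC and 3 shATGL MV4-11 libraries was sequenced as paired reads. The authors cleaned reads with FASTP and deposited raw counts per Ensembl gene without normalization. The labels name the mouse build mm10, although the identifiers are human. The aligner, counter, strand setting and annotation are not given in the sources used here. Positions, exon lengths and overlaps are from GENCODE 29 (GRCh38) and promoters from RefSeq (GRCh38.p14). The promoters of MRPL10, MRPL13, MRPL15, MRPL2, MRPL21, MRPL23, MRPL35, MRPS28 and MRPS36 were not matched.

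The count table was fitted with edgeR 4.0.16 (R 4.3.3), using filterByExpr (minimum count 10, minimum total 15), TMM scaling and the quasi-likelihood test without a block, with Benjamini-Hochberg adjustment over 19149 genes and calls at an adjusted p under 0.05 and a fold of at least 2. CPM are on TMM-scaled library sizes. Single values were tested by exact permutation over 20 relabellings. Library deviations used log2 CPM for the 78 genes and log2(CPM + 1) over all genes. Length and G and C trends were removed as splines with 4 degrees of freedom. Alternatives used DESeq2 1.42.0, limma 3.58.1, other scaling, filters, a replicate block and leaving out each library. Scripts were tested on simulated data.

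Members, roles and lists were chosen with earlier results of these data known. Named genes were the 4 highest and 2 lowest per subunit, up to 5 with the smallest p in each direction without overlap, lead members of each role, genes whose symbol and place differ, PNPLA2, both mitochondrial rRNAs and the companions with the smallest p; others are marked as named after their values were seen.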

Additional observations from a re-analysis of the deposited data

How the results depend on the processing

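No gene was called at 2-fold under any alternative, and the median log2 fold change stayed between -0.27 and -0.16. At any fold, 34 genes passed with limma voom and quality weights and 38 without shATGL 3, and 0 in the others (0 to 38 when leaving out 1 library); the cause was not tested. With DESeq2 0 passed, with a smallest adjusted p of 0.120. At an unadjusted DESeq2 p under 0.05, 32 genes were lower and 1 was higher. The background for lower genes was 3.14% of 31959 genes, fitted without the low count filter, so it is not comparable with the other backgrounds. Genes whose shATGL libraries all lay below shNC numbered 22 with upper-quartile scaling (background 7.73%) and 65 without shATGL 3 (background 24.1%). The replicate block gave a median of -0.20 and 0 genes, with a smallest adjusted p of 0.0922. At an unadjusted p under 0.05 (edgeR) the block gave 49 lower genes (background 9.41%). Deviations from the group mean correlated between same-numbered libraries at -0.0277, 0.113 and 0.203 over 13162 genes. Between differently numbered libraries these correlations ran from -0.201 to 0.111. Whether the numbers mark pairs was not settled, and the main test had no block. The large to small ratio averaged 2.17 over the libraries, 2.61 by structure and 1.81 on summed CPM, and 5 of the 8 highest genes stayed with the longest transcript length. With 1 library left out at a time, PNPLA2 ranged from -0.024 without shATGL 3 to 0.033 without shNC 3 (0.018 without shATGL 2), MRPL1 from -0.028 without shATGL 2 to 0.283 without shATGL 3, and MRPS10 from -0.042 without shATGL 1 to 0.054 without shATGL 3 (0.018 without shNC 2, 0.00050 without shNC 3). MRPS10 also turned to 0.048 with voom and 0.00021 with at least 10 counts in every library, and MRPL1 to -0.0082 without length and G and C trends. The ratio without MRPS25, the summed pairs and the counts of genes without overlap or at any fold were chosen after seeing the data. Every gene had at least 457 counts in each library.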

Other observations

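Other gene groups of protein synthesis and the respiratory chain had values on the same side of 0. Of 83 tested cytosolic ribosomal protein genes, which make the ribosome outside the organelle, all 83 had a log2 fold change below 0 (background 48.1%), with a median of -0.27, and 67 (80.7%) were lower in every shATGL library (background 9.38%). Of 75 nuclear genes for the respiratory chain 74 were below 0, with a median of -0.26, and 49 (65.3%) did not overlap. All 13 messengers encoded in mitochondrial DNA were below 0, with a median of -0.24, and 3 (23.1%) did not overlap. None of these genes had an adjusted p under 0.05 (edgeR, Benjamini-Hochberg), and 76, 54 and 8 of them were lower at an unadjusted p under 0.05 (background 5.94%). The cytosolic ribosomal protein genes had a median longest transcript of 1176 bases and the respiratory chain genes one of 1256 bases; with length and G and C trends removed their medians were -0.27 and -0.25. These lists share the 6 libraries with the mitochondrial ribosomal protein genes and are not independent of them.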
